A study of Mus musculus with 2 samples.

Results

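The cytokine receptor genes described here are the 10 receptor chains of regulatory T cells (Tregs) other than the 3 chains of the interleukin-2 (IL-2) receptor: Il7r, Il15ra, Il4ra, Il21r, Il6ra, Il6st, Il10ra, Il27ra, Tgfbr1 and Tgfbr2. They were taken by symbol, and each was found once among the 32285 genes that both count matrices list. Single-cell RNA was measured with a 10x 3' kit in sorted spleen Tregs of mice, 1 library per group, each from 2 pooled spleens. The series title asks about IL-2 receptor signalling, and its design removes CD25, the IL-2 receptor alpha chain encoded by Il2ra, from mature Tregs.

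The CD25WT library has the genotype CD25WT/WT-tdTomato+/+-Foxp3eGFPCretERT2+/+ and the CD25KO library CD25FL/FL-tdTomato+/+-Foxp3eGFPCretERT2+/+. Both therefore carry the tdTomato reporter and a tamoxifen-dependent Cre joined to eGFP and made under Foxp3, so that recombination is limited to cells that express Foxp3. Both received tamoxifen by intraperitoneal injection at 2 mg/kg for 5 days, and spleens were taken 10 days after induction. Live cells were sorted on CD4, GFP and tdTomato, and for CD25KO alone the gate was also set on low CD25. The genotype and this gate cannot be told apart. With 1 library per group no difference between genotypes could be tested. All intervals below are 95% intervals for counting error only, since cells of 1 library are not replicates. They are not adjusted for the number of genes and states compared.

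Cytokine receptors are built from shared and private chains. Il2rg encodes the common gamma chain, which pairs with the private chains for IL-7, IL-4 and IL-21 and, with Il2rb, serves IL-2 and IL-15, while gp130 (Il6st) pairs with the IL-6 receptor and the IL-27 receptor alpha chain. These receptors signal through JAK kinases and STAT factors, whereas the TGF-beta receptors are serine/threonine kinases that act on SMAD proteins. Tregs need IL-2 for their survival and identity, IL-7 is a survival factor of resting T cells, and TGF-beta takes part in Treg formation.

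Promoters of the members were matched by symbol to RefSeq (GRCm38.p6), which held 8 of the 10. Shown are the 160 bases before the first listed start of 5 members: Il4ra and Il6ra, which had the lowest CD25KO to CD25WT ratios, Il15ra, which had the highest, and Il7r and Il21r, the members with a match to a searched motif. The starts are those of RefSeq. In the GENCODE annotation used for the gene positions below, the Il7r window lies wholly and the Il4ra window mostly inside the gene. Capitals mark the match.
Il7r (chr15:9529877-9530036, minus strand): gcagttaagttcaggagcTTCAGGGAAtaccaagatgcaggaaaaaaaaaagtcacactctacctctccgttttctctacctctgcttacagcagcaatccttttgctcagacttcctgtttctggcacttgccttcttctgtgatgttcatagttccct
Il21r (chr7:125603269-125603428, plus strand): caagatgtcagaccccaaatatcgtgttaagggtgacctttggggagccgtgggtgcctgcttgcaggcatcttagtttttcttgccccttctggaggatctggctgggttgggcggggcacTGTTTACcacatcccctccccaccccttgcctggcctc
Il4ra (chr7:125552111-125552270, plus strand): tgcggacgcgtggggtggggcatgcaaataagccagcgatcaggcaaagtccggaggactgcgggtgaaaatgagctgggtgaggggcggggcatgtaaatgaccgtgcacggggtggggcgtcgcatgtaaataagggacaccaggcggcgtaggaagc
Il6ra (chr3:89913197-89913356, minus strand): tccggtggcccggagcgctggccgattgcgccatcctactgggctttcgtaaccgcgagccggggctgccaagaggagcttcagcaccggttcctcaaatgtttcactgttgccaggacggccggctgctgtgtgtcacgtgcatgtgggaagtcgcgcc
Il15ra (chr2:11705133-11705292, plus strand): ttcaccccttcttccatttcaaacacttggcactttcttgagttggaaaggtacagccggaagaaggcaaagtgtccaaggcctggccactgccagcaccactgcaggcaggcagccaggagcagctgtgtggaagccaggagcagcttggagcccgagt

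On both strands, 2 motifs were searched: TTCNNNGAA, the core bound by STAT factors, and GTAAACA, the core bound by forkhead factors such as the Foxo and Foxp families. The match in Il7r was TTCAGGGAA, 142 bases before the start, and 4.36% of 32851 RefSeq promoter windows of the same length hold this motif. The match in Il21r was TGTTTAC, the reverse complement of GTAAACA, 38 bases before the start, and 1.95% of the windows hold it. The matches are a description of these letters and say nothing about binding. Il15ra lies next to the deleted gene, since 12097 bases separate it from Il2ra on chromosome 2. Il4ra and Il21r lie beside each other on chromosome 7, 23955 bases apart, in the annotation of GENCODE mouse release 21.

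The matrices held 6620 (CD25WT) and 7530 (CD25KO) barcodes with 36971834 and 36986849 UMIs (unique molecular identifiers, each 1 captured transcript). Kept were 6110 and 6952 cells, with 500 or more genes detected and no more than 10% of UMIs from mitochondrial genes, and 107 barcode sequences occurred in both libraries, 26 of them among kept cells. After clusters of other lineages were left out (97 and 89 cells), 6013 and 6863 T cells remained, with medians of 5240 and 4151 UMIs per cell. Il2ra, the targeted gene, stood at 126 counts per 1000000 UMIs (CPM) in CD25WT and 32.7 in CD25KO, but 3' tags need not lie in the deleted part (its exons are not given in the sources used here), and the gate alone selects for low CD25. Foxp3, which defines Tregs, stood at 34.5 and 21.8 CPM, and 965 and 687 T cells had a Foxp3 UMI. Ribosomal protein genes took 39.6% of UMIs in CD25WT and 31.1% in CD25KO. Of 7 B cell markers 2 averaged 10 CPM, and the 7 summed to 240.2 and 431 CPM, most of it Ighm. Of 6 myeloid markers 1 averaged 10 CPM (Cst3), with sums of 106 and 144 CPM and no S100a9 UMI in either library. Of 5 erythroid markers 4 did, all haemoglobin genes, with sums of 210.3 and 107 CPM. Sums for the CD8 and natural killer list were 12.0 and 16.5 CPM, and for the plasmacytoid list 175 and 173. The part of depth, ribosomal share and these transcripts in the ratios below was not tested.

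Cells were clustered without the 10 members, Il2ra and the wider cytokine receptor lists, and states were named from marker genes. The central-like state (Ccr7, Igfbp4) held 2689 CD25WT and 343 CD25KO cells, and the effector-like state (S100a4, Ccl5, Gzmb) 265 and 1838. Smaller named states were recently stimulated-like (487 and 1016), follicular regulatory-like (130 and 370), interferon-response-like (315 and 273) and cycling (80 and 231). Clusters that met no marker rule are called by their leading gene: Naip5 (533 and 1107), Ces2c (295 and 886), Prg4 (654 and 512), Gsta4 (501 and 269) and Tmem176b (64 and 18). The libraries thus differ most in their mix of central-like and effector-like cells, and 9 states held at least 100 cells of each library. Highest and lowest levels below are among the states with 100 or more cells in that library, which leaves out the Tmem176b-led cluster in both and cycling cells in CD25WT. A state drawn mostly from 1 library may be a feature of that library: CD25WT gave 89.0% and 88.2% of the cells in the 2 central-like clusters and 9.83% and 15.9% in the 2 effector-like clusters.

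Across all T cells, Il4ra and Il6ra were lower in CD25KO, Il15ra and Il10ra were higher, and the other 6 members lay close to or below the typical gene. Il4ra and Il6ra were at least 1.5-fold lower, as were 1.49% of the 7125 genes that averaged 10 CPM or more. Il15ra was at least 1.5-fold higher, as were 10.6% of those genes. The other 7 members lay between a log2 ratio of -0.21 and 0.40. The members' median log2 ratio of CD25KO over CD25WT was -0.10, beside 0.21 for all genes tested. Scaling by edgeR's TMM factors lowers all ratios by 0.23, which turns the sign of Il7r alone among the 10, and relative to the median gene only Il15ra and Il10ra were above it.

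**Figure D1:**
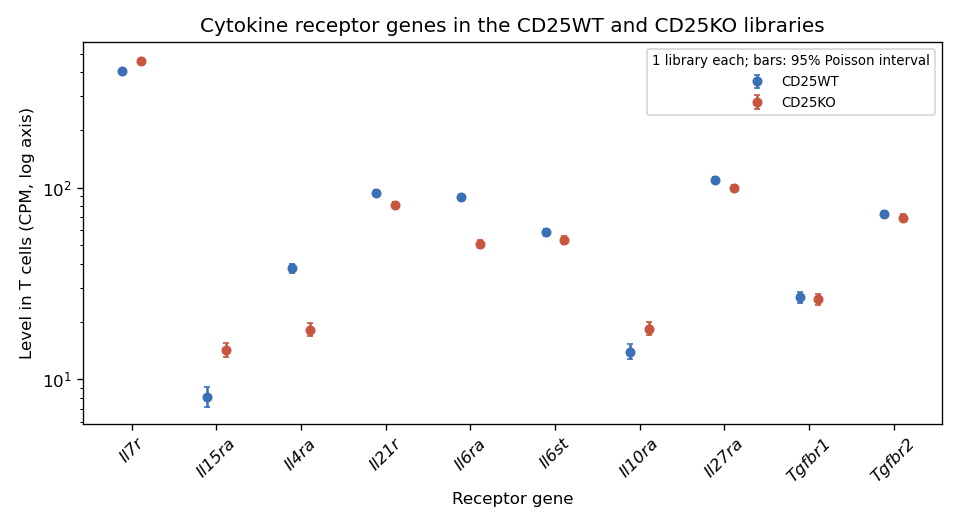
Level of each receptor gene in CPM (log axis) in the CD25WT and CD25KO libraries, 1 library each, with 95% Poisson intervals over summed UMIs of T cells. Il4ra and Il6ra sit lower in CD25KO, Il15ra and Il10ra higher, and the intervals of Tgfbr1 and Tgfbr2 overlap between the libraries.

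When both libraries were given the CD25WT mix of states (each state's CPM weighted by its share of CD25WT T cells), no member was 1.5-fold apart, against 0.842% of genes lower and 2.58% higher. With TMM factors as well, Il10ra was more than 1.5-fold lower, at -0.68, and Il6ra stood at -0.57. The share of all genes was not computed for that setting. Without TMM factors the members' median with this mix was -0.03 and that of all genes 0.09. Il4ra went from -1.07 to -0.23 and Il15ra from 0.81 to 0.33. Il10ra, Il6st and Tgfbr2 changed sign, Il10ra from 0.40 to -0.45, Il6st from -0.13 to 0.19 and Tgfbr2 from -0.06 to 0.07, where both intervals of Tgfbr2 hold 0. This weighting leans on the 343 central-like cells of CD25KO, which stand for 44.7% of the weight.

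**Figure D2:**
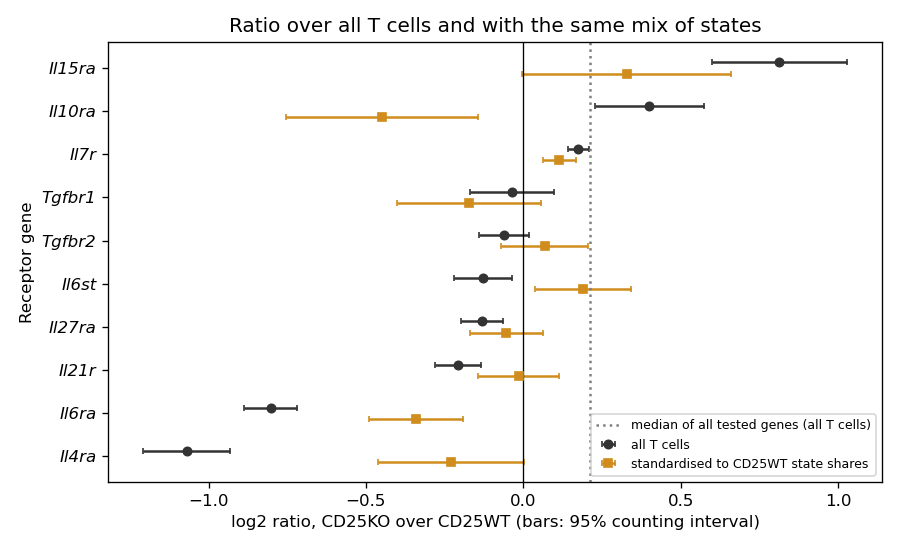
log2 ratio of CD25KO over CD25WT for each receptor gene over all T cells (black circles) and with the CD25WT mix of states in both libraries (orange squares), with 95% counting intervals. The dotted line is the median of all tested genes, 0.21, and Il4ra moves most towards 0 when the mix is held the same.

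Among the private chains that pair with the common gamma chain, Il7r, the IL-7 receptor alpha chain, gave the most UMIs of the 10 genes, 14121 in CD25WT and 16113 in CD25KO. Its level was 405 CPM (398 to 412) in CD25WT and 457 (450.1 to 464) in CD25KO, a log2 ratio of 0.17 (0.14 to 0.21). The intervals do not overlap, but the ratio is below the median gene and becomes -0.06 with TMM factors and -0.02 with a total that leaves out ribosomal protein and mitochondrial genes. Il7r lies on chromosome 15 (9505788 to 9530176, minus strand).

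Il7r varied more between states than between libraries. Among states of at least 100 cells it was highest in the Prg4-led cluster, at 874 CPM in CD25WT and 1055 in CD25KO, and was the fourth leading gene of that cluster although the clustering did not use it. The small Tmem176b-led cluster, of 64 and 18 cells, stood higher, at 995 CPM (903 to 1094) and 1631 (1389 to 1902). It was lowest in the follicular regulatory-like state, at 42.6 and 109 CPM. In CD25WT, 4 of the 8 neighbouring pairs in the order of states had intervals that did not overlap; the interferon-response-like, central-like, effector-like, Gsta4-led and Ces2c-led states lay between 338 and 393 CPM without such a gap between neighbours. The effector-like state stood at 377 CPM in CD25WT, inside that range, and at 592 in CD25KO, second there among states of at least 100 cells.

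Within states Il7r was higher in CD25KO in 7 of 9, each with an interval above 0, and lower in 2, each with an interval below 0. The counts of states with a ratio above and below 0 were the same with that total and after subtracting each state's median gene. Intervals were not computed for those scalings. The largest ratio was in the follicular regulatory-like state, 1.35 (0.79 to 1.97), from 29 and 200 UMIs, where 8.38% of 7625 genes were at least 1.5-fold higher. Recently stimulated-like cells stood at 0.79 (0.66 to 0.93), from 169.9 to 294 CPM, and effector-like cells at 0.65 (0.53 to 0.78). Most effector-like CD25WT cells belong to the S100a4-led cluster and most CD25KO cells to the Ccl5-led one. Taken one cluster at a time the ratio was 0.36 (0.19 to 0.53) in the S100a4-led and 0.67 (0.49 to 0.87) in the Ccl5-led cluster. The exceptions were the central-like state, at -0.23 (-0.37 to -0.10), and the Gsta4-led cluster, at -0.31 (-0.49 to -0.13), which has Ccr7 and Il2ra among its leading genes. Both clusters of the central-like state showed the lower level, at -0.22 (-0.42 to -0.03) and -0.23 (-0.41 to -0.05). With the CD25WT mix of states the ratio of Il7r was 0.11 (0.06 to 0.17). This value depended on the processing: it was -0.01 at a clustering resolution of 0.5, -0.03 at 1.5 and -0.12 with TMM factors. It was 0.10 with 50 principal components and 0.10 with states set by the highest marker score.

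**Figure D3:**
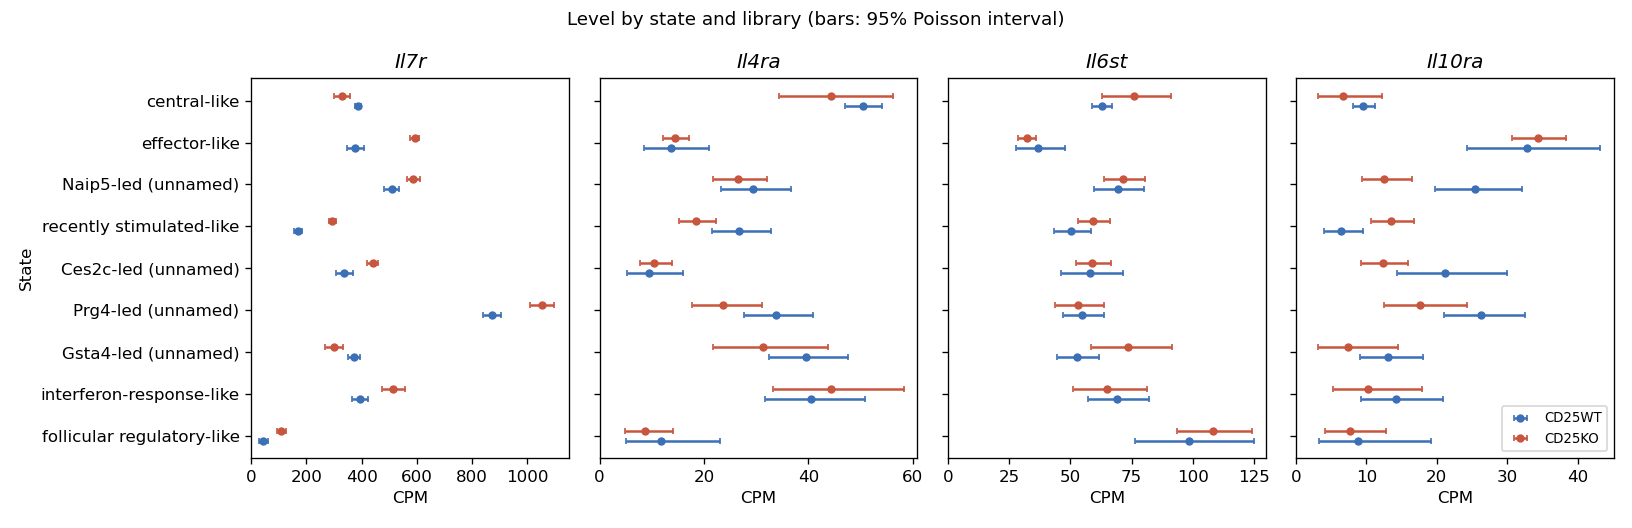
Level in CPM of Il7r, Il4ra, Il6st and Il10ra in each state with at least 100 cells in both libraries (blue CD25WT, red CD25KO; bars are 95% Poisson intervals). Il7r peaks in the Prg4-led cluster, Il4ra in central-like and interferon-response-like cells, Il6st in follicular regulatory-like cells and Il10ra in effector-like cells.

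Il15ra encodes the chain that binds IL-15 with high affinity and presents it to neighbouring cells. It was sparse, with 283 UMIs in CD25WT and 502 in CD25KO, or 8.12 CPM (7.20 to 9.12) and 14.2 (13.02 to 15.5), so that it reached 10 CPM in CD25KO only. The log2 ratio was 0.81 (0.60 to 1.03), higher than that of 94.32% of genes tested. Its ratio kept its sign under all 17 alternatives, from 0.33 with the CD25WT mix of states (-0.0032 to 0.66) to 0.99 with the stricter cell filter. Within states it was higher in 7 of 9, with intervals above 0 in the effector-like, 0.82 (0.06 to 1.69), and recently stimulated-like states, 0.82 (0.19 to 1.48). Neighbouring states in its order overlapped in both libraries, but the ends of the order did not: in CD25WT, Ces2c-led cells had 18.4 CPM (12.1 to 26.8) and central-like cells 6.93 (5.68 to 8.36). Il15ra lies on chromosome 2 (11705290 to 11734317, plus strand).

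Il4ra, the shared alpha chain of the IL-4 and IL-13 receptors, showed the largest difference between the libraries among the members. It stood at 38.0 CPM (36.0 to 40.1) in CD25WT and 18.1 (16.7 to 19.6) in CD25KO, a log2 ratio of -1.07 (-1.21 to -0.93). Only 0.46% of the genes tested had a lower ratio. Il4ra was high in the states that CD25WT holds more of: central-like cells had 50.5 CPM in CD25WT and 44.3 in CD25KO, and interferon-response-like cells 40.5 and 44.4. In contrast, effector-like cells had 13.8 and 14.5 CPM and Ces2c-led cells 9.55 and 10.5. Within states the intervals excluded 0 in 2 of 9, the recently stimulated-like state at -0.53 (-0.94 to -0.11) and the Prg4-led cluster at -0.51 (-1.02 to -0.02). With the CD25WT mix of states the ratio was -0.23 (-0.46 to 0.0022), and this value depended on how states were cut, from -0.52 with states set by the highest marker score to 0.16 at a clustering resolution of 1.5. Il4ra lies on chromosome 7 (125552120 to 125579474, plus strand).

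Il21r, the IL-21 receptor, stood at 93.8 CPM (90.6 to 97.0) in CD25WT and 81.2 (78.3 to 84.3) in CD25KO, a log2 ratio of -0.21 (-0.28 to -0.13). Its ratio was -0.02 (-0.14 to 0.11) with the CD25WT mix of states. It was highest in recently stimulated-like cells of both libraries, at 137 and 123 CPM. The follicular regulatory-like state came second in CD25WT, at 113 CPM, but stood at 73.3 CPM in CD25KO, a ratio of -0.62 (-1.04 to -0.20). Interferon-response-like cells had the opposite sign, 0.38 (0.04 to 0.73). IL-21 is made by follicular helper T cells, and Il21 itself gave 3.13 and 6.10 CPM. Il21r lies on chromosome 7 (125603429 to 125633570, plus strand).

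Of the chains that signal through gp130, Il6ra, the ligand-binding IL-6 receptor, was lower in CD25KO in every state with at least 100 cells in both libraries, and gp130 itself was not. Il6ra stood at 88.8 CPM (85.7 to 92.0) in CD25WT and 50.9 (48.6 to 53.4) in CD25KO, a log2 ratio of -0.80 (-0.89 to -0.72), and 0.86% of genes tested had a lower ratio. With the CD25WT mix of states it was -0.34 (-0.49 to -0.19). Values between -0.48 and -0.32 came from the other ways of cutting states. All 9 states had a ratio below 0 under each of 3 scalings, and in 5 the interval lay below 0. These were the Naip5-led cluster, -0.66 (-0.94 to -0.38), the effector-like, -0.65 (-0.95 to -0.34), follicular regulatory-like, -0.60 (-1.02 to -0.17), recently stimulated-like, -0.41 (-0.72 to -0.10), and central-like states, -0.32 (-0.58 to -0.06).

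For Il6ra the lower level was not seen in every cluster of the central-like and effector-like states. In the Ly6c1-led central-like cluster the ratio was 0.02 (-0.33 to 0.35), with 92.4 and 93.8 CPM. The S100a4-led effector-like cluster stood at -0.60 (-0.93 to -0.27) and the Ccl5-led one at 0.01 (-0.85 to 1.01), with only 12 Il6ra UMIs in CD25WT. The difference between clusters was not tested. Among states of at least 100 cells Il6ra was highest in the Prg4-led cluster of both libraries, at 113 and 96.3 CPM, and it lies on chromosome 3 (89864059 to 89913196, minus strand).

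Il6st, which encodes gp130, stood at 58.5 CPM (56.0 to 61.1) in CD25WT and 53.5 (51.1 to 56.0) in CD25KO, a ratio of -0.13 (-0.22 to -0.04), and at 0.19 (0.04 to 0.34) with the CD25WT mix of states. It was highest in follicular regulatory-like cells, at 98.4 and 108 CPM, and among the 9 states lowest in effector-like cells, at 36.7 and 32.1 CPM. With effector-like cells left out of both libraries the ratio was 0.04. Within states its interval lay above 0 in the Gsta4-led cluster alone, 0.48 (0.07 to 0.89). Il6st lies on chromosome 13 (112464070 to 112510086, plus strand).

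The ratio of Il6ra to Il6st UMIs does not depend on how the libraries are scaled. It was 1.52 in CD25WT and 0.952 in CD25KO over all T cells, and it was lower in CD25KO in each of the 9 states. It went from 1.70 to 1.13 in central-like cells and from 1.12 to 0.673 in follicular regulatory-like cells, and least in interferon-response-like cells, from 1.25 to 1.14. UMIs of different genes are captured with different efficiency, so the ratio is compared between libraries and not read as a ratio of transcripts. No counting interval was computed for it. The S100a4-led effector-like cluster gave 102 Il6ra and 42 Il6st UMIs in CD25WT and 340 and 141 in CD25KO. Both genes were lower by a like amount there, at log2 ratios of -0.60 and -0.59 (-1.10 to -0.06). That cluster thus did not show the lower ratio of Il6ra to Il6st. In the Ccl5-led cluster the log2 ratios were 0.01 for Il6ra and 0.39 (-0.40 to 1.29) for Il6st.

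Il27ra, the private chain of the IL-27 receptor, varied little across the 9 states, but differed between the 2 effector-like clusters. It stood at 109 CPM (106 to 113) in CD25WT and 99.9 (96.6 to 103) in CD25KO, a ratio of -0.13 (-0.20 to -0.07). The highest of the 9 states in CD25WT exceeded the lowest 1.40-fold, and no neighbours in the order were apart. Cycling cells were lower, at 44.4 CPM (33.5 to 57.8) in CD25WT and 50.1 (43.1 to 57.9) in CD25KO. Within states the interval excluded 0 in 2, the effector-like state at -0.27 (-0.50 to -0.03) and the Prg4-led cluster at -0.27 (-0.51 to -0.04). The Ccl5-led effector-like cluster had 182 CPM in CD25WT and 131 in CD25KO, a ratio of -0.48 (-0.82 to -0.12). The S100a4-led one had 95.7 and 78.9 CPM, a ratio of -0.28 (-0.59 to 0.05). Il27ra lies on chromosome 8 (84030294 to 84042589, minus strand).

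Il10ra, the ligand-binding chain of the receptor for IL-10, was highest in the effector-like state, though not clearly apart from other states in CD25WT. It stood at 13.9 CPM (12.7 to 15.2) in CD25WT and 18.4 (17.0 to 19.9) in CD25KO, a ratio of 0.40 (0.23 to 0.57) from 486 and 648 UMIs. Effector-like cells had the highest level in both libraries, 32.8 and 34.4 CPM, with a ratio between libraries of 0.07 (-0.36 to 0.53), and central-like cells had 9.49 and 6.61 CPM. Without the effector-like cells the ratio was -0.06. Within the 9 states Il10ra was lower in CD25KO in 7, with intervals below 0 in the Naip5-led, -1.02 (-1.57 to -0.47), Ces2c-led, -0.78 (-1.44 to -0.10), and Prg4-led clusters, -0.57 (-1.17 to -0.01). Recently stimulated-like cells were opposite, at 1.09 (0.39 to 1.84), from 22 and 77 UMIs. The value with the CD25WT mix of states, -0.45 (-0.75 to -0.14), was -0.09 when states were set by the highest marker score and -0.68 with TMM factors. Il10ra lies on chromosome 9 (45253837 to 45269149, minus strand).

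**Figure D4:**
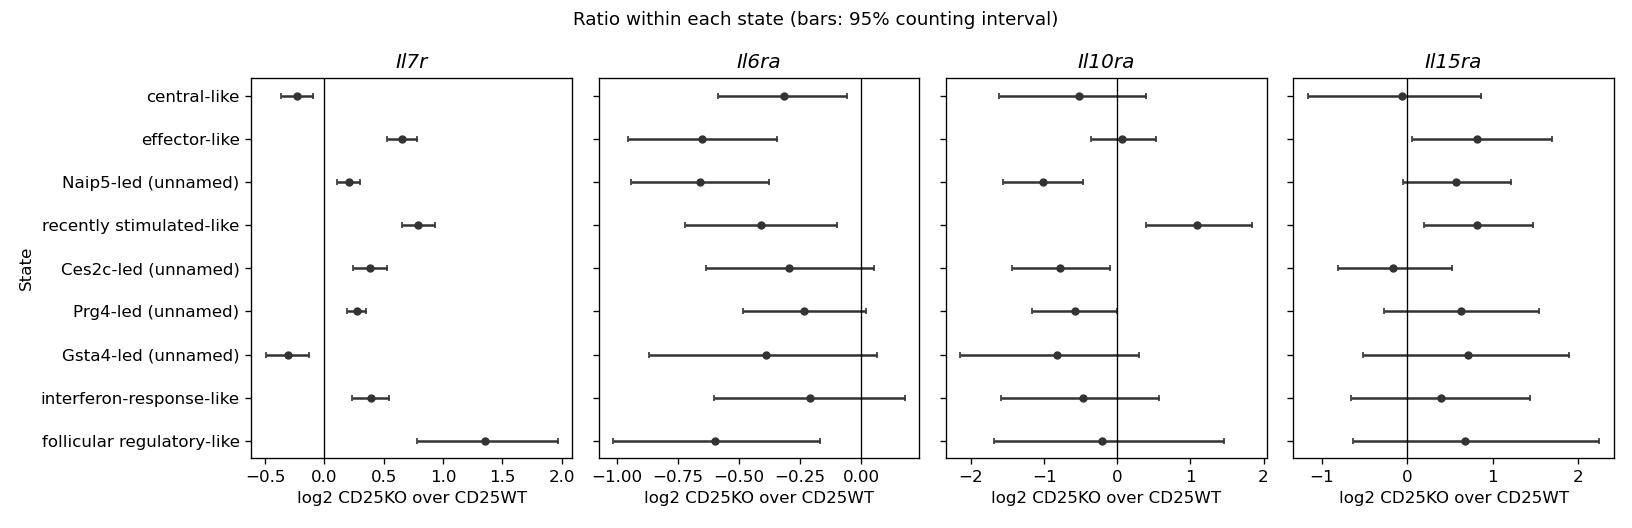
log2 ratio of CD25KO over CD25WT within each state with at least 100 cells in both libraries, for Il7r, Il6ra, Il10ra and Il15ra, with 95% counting intervals; the horizontal scales differ between panels. Il6ra lies below 0 in all 9 states, Il7r above 0 in 7, and Il10ra runs from -1.02 to 1.09.

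The TGF-beta receptors, by contrast, were close in the libraries. Tgfbr1, the type I kinase, stood at 26.9 CPM (25.2 to 28.6) and 26.2 (24.5 to 28.0), a ratio of -0.04 (-0.17 to 0.10), and Tgfbr2, the type II kinase that binds the ligand first, at 72.7 (69.9 to 75.6) and 69.6 (66.9 to 72.4), a ratio of -0.06 (-0.14 to 0.02). With TMM factors the ratios were -0.27 and -0.30. Tgfbr1 had no state with an interval that excluded 0. Tgfbr2 had 1, the follicular regulatory-like state at -0.54 (-0.98 to -0.10), where its CD25WT level was the highest of the 9 states, 99.8 CPM, against 68.4 in CD25KO. The ratio of Tgfbr1 to Tgfbr2 UMIs was 0.370 and 0.377. Tgfbr1 lies on chromosome 4 (47353222 to 47414931, plus strand) and Tgfbr2 on chromosome 9 (116084293 to 116175360, minus strand).

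In the follicular regulatory-like state 4 of the 10 members were thus at least 1.5-fold apart: Il7r (1.35) and Il15ra (0.68) higher, and Il21r (-0.62) and Il6ra (-0.60) lower. In this state 8.14% of genes were as much lower and 8.38% as much higher. It held 130 CD25WT cells, so that Il15ra rested on 6 and 26 UMIs.

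A UMI of most members was seen in a minority of cells. With every cell thinned to 2000 UMIs, which left out 67 and 357 shallower T cells, Il7r was seen in 44.2% of T cells in CD25WT and 47.8% in CD25KO (64.7% and 63.7% before thinning). In the B cell cluster, whose median depths were 3987 and 3269 UMIs, it was seen in 12.1% (3.40 to 28.2) and 9.09% (1.92 to 24.3) of 33 thinned cells each, below both T cell shares. Il27ra was likewise above the B cell cluster, with 19.7% and 19.8% of T cells against 0 of 33 (up to 10.6%) and 3.03% (0.0767 to 15.8). Il6ra was seen in 15.9% and 9.42% of T cells, Il4ra in 7.10% and 3.90% and Il10ra in 3.08% and 3.32%. These shares lay within or near the intervals of the 33 B cells, which are wide (1.92 to 24.3% for Il6ra in CD25WT). So few B cells cannot separate expression from background here, and the shares are not read as shares of expressing cells. A thinned cell held UMIs of 1.38 members on average in CD25WT and 1.32 in CD25KO.

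Cells were also split by whether they had an Il2ra UMI, 2106 of 6013 in CD25WT and 825 of 6863 in CD25KO, a split that deeper cells pass more easily. In CD25WT, Il2ra stood at 144 CPM in central-like and 33.4 in effector-like cells, and Il4ra at 50.5 and 13.8. The part of state in this split was not tested. Il4ra was higher in cells with an Il2ra UMI by 0.46 (0.31 to 0.62) in CD25WT and 0.46 (0.16 to 0.75) in CD25KO on the log2 scale. Tgfbr1 was also higher in both, by 0.26 (0.07 to 0.44) and 0.28 (0.02 to 0.54). For Il7r this difference was -0.14 (-0.19 to -0.09) in CD25WT and 0.11 (0.05 to 0.17) in CD25KO. With only cells lacking an Il2ra UMI in both libraries, the CD25KO to CD25WT ratio of Il4ra was -0.94 and that of Il6ra -0.72.

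Partner chains differed little over all T cells. Of 6 partner chains, 3 averaged 10 CPM and none was 1.5-fold apart: Il2rg stood at 0.25 (0.21 to 0.29), Il2rb, which serves IL-15 with Il15ra, at 0.14 (0.09 to 0.19) and -0.43 with the CD25WT mix of states, and Il10rb, the signalling partner of Il10ra, at -0.03 (-0.13 to 0.07). Among 27 other cytokine receptors 11 had that level, and their median was 0.60 (0.07 with the CD25WT mix of states). A ratio of 1.5-fold or more was seen upwards in 6 of the 11 (10.6% of all genes tested) and downwards in 1 (1.49%), and with the CD25WT mix of states in 2 and 0. Il1rl1, Il3ra and Bmpr2 reached the level of 10 CPM in CD25KO only, so that the count and the median are a description and no support. The 4 with the largest ratios were Il1r2 (2.60), the decoy receptor for IL-1, Il1rl1 (2.16), the IL-33 receptor, Il18r1 (1.07), the IL-18 receptor, and Il3ra (0.83). The 10 members' median was -0.10. It is not set against that of the 11, since 3 of the 11 entered through their higher level in CD25KO.

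Most ligand genes gave few UMIs in these cells. Of 14 ligands, Ebi3, a subunit of IL-27 and IL-35, had a ratio of 1.68 (1.49 to 1.87) and Tgfb1 of 0.30 (0.23 to 0.37). Ebi3 reached 10 CPM in CD25KO only. The other 12 averaged under 10 CPM, and Il6 and Il27 had no UMI. All 11 JAK and STAT genes had at least 10 CPM, with a median of 0.32, and 1 reached 1.5-fold, upwards, as did 10.6% of all genes tested. Jak2 stood at 0.85, Tyk2 at 0.49 and Jak3 at 0.34. Of 15 feedback genes 13 had that level and 1 was as far apart in each direction (10.6% of all genes tested upwards and 1.49% downwards). These were Socs5 at 0.80, which reached 10 CPM in CD25KO only, and Socs2, a target of STAT5, at -0.87. Cish, another STAT5 target, stood at -0.42 (-0.53 to -0.32) and -0.66 with the CD25WT mix of states, and the phosphatase Ptpn1 at 0.40. Of 14 SMAD and TGF-beta signalling genes 10 had that level and none was 1.5-fold apart, with Smurf2 at 0.48, Fkbp1a at 0.48, Smad7 at -0.33 and Tgif1 at 0.32.

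Of 10 genes listed as STAT3 or STAT6 targets 8 averaged 10 CPM, and these 8 were 1.5-fold or more higher, as were 10.6% of all genes tested. With the CD25WT mix of states 3 of the 8 were, and the median went from 0.93 to 0.48. Cebpb had the largest ratio, 4.12 (3.77 to 4.49), from 70 and 1233 UMIs, and reached 10 CPM in CD25KO only. Next came the transcription factor genes Maf (1.65), Batf (1.61) and Gata3 (1.05). Many signals act on these genes, and the list says nothing of which receptor was active. Of 8 genes that regulate Il7r transcription, 1 was 1.5-fold lower, as were 1.49% of all genes tested. This was Foxp1, at -0.61 (-0.65 to -0.57), but it stood at 0.0048 with the CD25WT mix of states. Klf2 stood at -0.54, Foxo1, an activator of Il7r, at -0.35, and Gfi1, a repressor, at 0.49. With the CD25WT mix of states these 3 were at -0.10, -0.02 and 0.09.

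Over the 19 sums of 1 library and 1 state with at least 100 cells, the genes whose log2 level was most like each member's were named by Pearson's r. The sums share library, depth and the clustering, so r is a description. For Il7r they were Smad4 (0.84) and Lfng (0.84), for Il15ra Crebl2 (0.86) and Gimap1 (0.85), for Il4ra Foxn3 (0.91) and Tpt1 (0.91), and for Il21r D10Wsu102e (0.86) and Nrip1 (0.79). For Il6ra they were Thada (0.85) and Ppm1h (0.83), for Il6st Evl (0.89) and Lamp1 (0.85), and for Il10ra Gpcpd1 (0.85) and Lpar6 (0.82). For Il27ra they were Tcp11l2 (0.89) and Phf1 (0.86), for Tgfbr1 Mllt6 (0.79) and Appbp2 (0.74), and for Tgfbr2 Fam49a (0.90) and Rnf167 (0.89). Between members r was highest for Il6ra and Tgfbr2 (0.82) and lowest for Il10ra and Il6st (-0.59), the former sharing low levels in recently stimulated-like and cycling cells and the latter being opposite in effector-like cells, where Il10ra was highest and Il6st low.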

How the data were processed

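Single-cell 3' libraries of sorted spleen Tregs, 1 per group, were deposited as whole-number UMI counts per gene and barcode and are not normalized. Per the file headers the tool was Cell Ranger 6.0.0, and per the submitters' processing notes the build was mm10. The gene annotation and aligner settings behind the counts are not given in the sources used here. The members, gene lists and tests were chosen with earlier results of these data known.

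Cells needed 500 detected genes or more and a mitochondrial share of UMIs of 10% or less. Scrublet called 1 and 0 doublets, which was taken as a failure of the caller, so doublets remain in the main values; an alternative removed the 324 and 419 cells of highest score. Both libraries were clustered together in Scanpy 1.11.5 (2000 variable genes, 30 principal components, 15 neighbours, Leiden resolution 1, leidenalg 0.10.2) without the members, Il2ra, other cytokine receptors, receptor segments, ribosomal protein, mitochondrial, haemoglobin and sex-linked genes. A state needed 2 of its markers in the top 10 genes by fold, 3 in the top 20, an average log2 fold of 0.25 over its list and no other list with as many; a cluster of another lineage needed an average of 2 on the log2 scale and 1 marker in the top 10. These thresholds were set after seeing the clusters.

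UMIs were summed per library and state and scaled to counts per 1000000 (CPM). The log2 ratio is CD25KO over CD25WT with the exact conditional interval; the interval of the ratio standardised to CD25WT state shares uses the variance of the counts. Levels have exact Poisson and shares Clopper-Pearson intervals, all for counting error only. Alternatives included edgeR 4.0.16 TMM factors, median-of-ratios factors, other filters and other states. The genes named are the 10 members, up to 4 genes per pathway list with the largest absolute ratio, and the 2 genes most like each member; others (Il2ra, Foxp3, markers, Il21, Il6 and Il27) serve as checks or were named after their values were seen. The ratio step was tested on simulated data at the real depths. Some genes that these rules take are named in no result and are not reported here.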

Additional observations from a re-analysis of the deposited data

Results flagged for a closer look

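For 3 members the ratio of CD25KO to CD25WT lay above 0 in 1 state and below 0 in another, with an interval that excluded 0 in both. The difference between states was not tested. The states named are the lowest and highest of 9 for these members, picked from 10. The intervals are not adjusted for that choice, and counting error alone can put some of so many clear of 0. The log2 ratio of Il7r was -0.31 in the Gsta4-led cluster and 1.35 in the follicular regulatory-like state. That of Il21r was -0.62 in the follicular regulatory-like state and 0.38 in the interferon-response-like state. That of Il10ra was -1.02 in the Naip5-led cluster and 1.09 in the recently stimulated-like state. Each state and library is 1 sum of cells, with no replicate.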

How the results depend on the processing

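The median log2 ratio of the members, -0.10, was -0.33 with TMM factors, -0.33 when size factors were medians of ratios, -0.29 without ribosomal protein and mitochondrial genes in the total, and -0.0086 with cells thinned to 2000 UMIs. The count of members at least 1.5-fold higher, 1, was 0 under both kinds of size factors (0 with TMM), 2 with the stricter cell filter, 2 in cells with a Foxp3 UMI and 0 with the CD25WT mix of states. The count at least 1.5-fold lower, 2, was 0 with that mix and 2 under the other alternatives run. With that mix and TMM factors together, Il10ra was more than 1.5-fold lower, at -0.68. The median with the CD25WT mix of states, -0.03, was -0.27 with TMM factors and 0.06 at a clustering resolution of 1.5. Of the values of single members under 17 alternatives each, 102 stayed within the counting interval of the value reported and 68 moved further. Il15ra stayed above 0, and Il4ra, Il6ra, Il21r and Il27ra below 0, under all 17. Other ways of cutting states were not among the 17. With these and the CD25WT mix of states, Il15ra, Il6ra and Il27ra kept their signs. The ratio of Il21r was then 0.04 at a clustering resolution of 0.5, 0.11 at 1.5 and 0.0023 with 50 principal components. That of Il4ra was 0.16 at a resolution of 1.5. Alternatives chosen after seeing the data were cells without an Il2ra UMI in both libraries, leaving out the effector-like or central-like state or shared barcodes, and single clusters in place of states. Depth limits Il15ra and Il10ra most, and follicular regulatory-like cells of CD25WT. No paired analysis was possible because each group is 1 library. The cause of these shifts was not tested.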
